A study of Mus musculus with 18 samples.

Results

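C-Kit+ cells of the leukemic spleen (AML, 3 RNA-seq libraries) were compared with hematopoietic stem and progenitor cells (HSPCs) of the preleukemic bone marrow (KO, 3 libraries). Both groups came from mice that carry the NUP98-HOXD13 fusion transgene (NHD13) and had lost Setd2 by Mx1-Cre-induced deletion, a Cre that is switched on by interferon in blood cells and in several other tissues. Cells of both groups were obtained by flow sorting. The spleen cells were taken at the leukemia stage. The other 6 RNA-seq libraries, 3 of HSPCs from C57BL/6 marrow (WT) and 3 of HSPCs from NHD13 mice with floxed, undeleted Setd2 (NHD13), entered the model only to estimate the spread between libraries and are given as reference levels. Organ (spleen against marrow), sorting gate (C-Kit+ cells against HSPCs) and stage of disease changed together, so they cannot be told apart. The count table held 53946 genes, of which 16233 passed a filter on low counts over the 4 groups and were tested. The remaining genes included 20286 with no read in any library. A gene could pass the filter through its counts in 1 group alone, so counts over the tested members of a list do not describe the members that failed it. No age of the mice was used here. The labels do not state whether replicate libraries were prepared from different mice, and the p-values therefore refer to the spread between libraries, which may be technical.

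Setd2 is the histone methyltransferase that trimethylates lysine 36 of histone H3 in transcribed gene bodies, and it is lost by mutation in some leukemias. The NUP98-HOXD13 fusion keeps Hoxa cluster genes switched on in progenitors, and mice that carry it develop myelodysplasia that can turn into acute leukemia. Marrow progenitors give rise to several lineages: erythroid, megakaryocyte, mast cell and granulocyte-monocyte. Granulocyte precursors make primary granule proteins such as myeloperoxidase and neutrophil elastase first and secondary granule proteins such as lactoferrin later.

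The targeted gene was measured first. Setd2 mRNA (chr9, mm10) stood at 33.1, 29.2 and 34.9 counts scaled to library size as CPM in the 3 KO libraries and at 183, 187 and 179 CPM in the 3 AML libraries. All AML libraries lay above all KO libraries, and the KO libraries lay near the NHD13 mean of 33.5 ± 1.72 CPM and below the WT mean of 42.1 ± 4.33 CPM (SD, n = 3 each). The fold change from the model was 2.50 ± 0.08 (SE) on the log2 scale (adjusted p = 1.64e-15). Counts over the whole gene do not tell deleted from intact transcripts, so this level does not check the deletion. Setd2 is 10754 bases long, in a length class with a median log2 fold change of 0.97, and after a correction for gene length its log2 fold change was 1.55. Kit, the receptor used to sort the spleen cells, stood at 95.3, 104 and 105 CPM in KO and at 217, 216 and 211 CPM in AML, without overlap. Its log2 fold change was 1.08 ± 0.06 (SE) (adjusted p = 2.13e-12) and 0.23 after the length correction. Kit was thus present in the cells of both sorts. Kit, Cd34 and the other 4 markers of stem or progenitor cells summed to 557 to 577 CPM in AML and to 310 to 323 CPM in KO. Of the 6, 4 rose: Kit and, with length-corrected log2 values, Cd34 (-0.14), Flt3 (0.76) and Ly6a (1.39). Hlf and Mecom were not called, and their length-corrected values were -0.54 and -0.97.

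The 3 AML libraries shared their leading immunoglobulin V segments, and so did the 3 KO libraries. In the AML libraries, Ighv1-26 held 4059, 3739 and 4085 reads, Igkv4-61 held 3676, 3886 and 4105, Ighv7-1 held 2154, 2073 and 2246, and Igkv1-110 held 2156, 2069 and 2212. The 4 leading segments made up 93.4%, 93.6% and 92.9% of the V reads of the 3 AML libraries. In the KO libraries the leading segments were others, with Igkv14-130 at 640, 1057 and 600 reads, Igkv4-86 at 466, 869 and 542, and Ighv3-6 at 242, 384 and 231. Their 4 leading segments made up 81.2%, 91.2% and 78.6% of V reads, against 52.9% to 60.3% in NHD13 and 43.3% to 51% in WT. In WT some leading segments were held by all 3 libraries, such as Igkv14-126 at 396, 336 and 292 reads. Others were not, such as Igkv12-89 at 0, 252 and 178 reads. Igkv14-130 had no read in any AML library. Immunoglobulin V segments are near-identical gene families whose reads may be split between members, and the labels do not state whether libraries of 1 group share an animal.

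**Figure D1:**
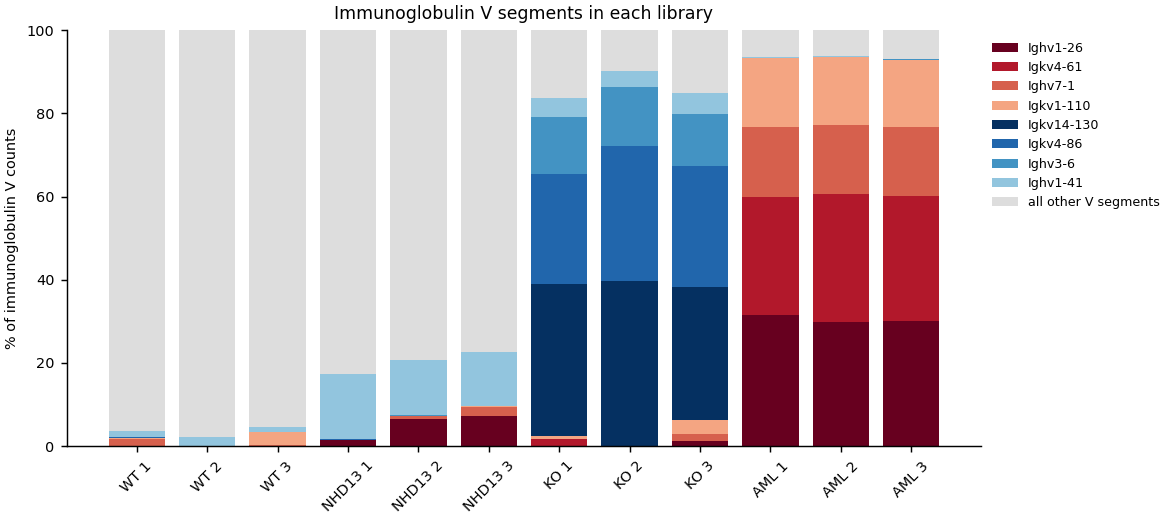
Share of immunoglobulin V reads (vertical axis, percent) taken by the 4 leading segments of the AML group and the 4 of the KO group in each of the 12 libraries. The 3 AML bars are filled by the same 4 segments, such as Ighv1-26 at 4059, 3739 and 4085 reads, and the 3 KO bars by Igkv14-130, Igkv4-86, Ighv3-6 and Ighv1-41.

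Total counts ran from 18673704 to 20577958 in AML and from 20436804 to 28127686 in KO. Counts were spread over more genes in AML, where the 10 leading genes held 4.68% to 4.78%, than in KO, where they held 9.23% to 10%. Replicates were close, with a median coefficient of variation of 3.68% in AML and 5.89% in KO. WT replicate 1 stood apart from its group, and without it the fit called 7285 genes higher and 6652 lower.

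Most genes differed. Of the 16233 genes tested, 13368 (82.4%) passed an adjusted p of 0.05 (Benjamini-Hochberg), 6953 (42.8%) as higher in AML and 6415 (39.5%) as lower. At least 2-fold differences were called for 5055 higher (31.1%) and 4363 lower (26.9%) genes, and at least 16-fold differences for 625 and 500. The 3 AML libraries did not overlap the 3 KO libraries at 13898 genes (85.6%). The median gene had a log2 fold change of 0.07. With library totals in place of the scaling factors (trimmed mean of M-values), the median gene shifted by 0.41, and 8395 genes were called higher and 5017 lower, so that 62.6% of the calls were higher, against 52.0% in the main model. Counts of direction in the lists below are read against these shares and not against even odds. Lack of overlap in named genes is read against the 85.6%, and the rule for naming genes favoured it.

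The fold change followed gene length. Genes under 1 kb had a median log2 fold change of -1.06 and genes of 1 to 2 kb of -0.98, while genes of 5 to 8 kb had 0.64 and genes of 8 kb and over 0.97. Of the genes under 1 kb, 24.4% were called higher and 53% lower, and of those of 8 kb and over 68.1% were called higher and 19.7% lower. The gap between the longest and the shortest class was 1.94, 1.99 and 1.71 in AML replicates 1, 2 and 3, each set against the KO mean. The same gap lay between -0.0466 and 0.0918 in the KO libraries against each other, and between 0.0125 and 0.201 in the NHD13 and WT libraries against the KO mean. The gap was thus wider in each AML library than in any marrow library. In the model it was 2.03, and 1.20 when no filter on low counts was used. Spearman's rho between length and fold change was 0.142 among the 5418 genes of lowest level, 0.391 among the next 5407 and 0.538 among the 5408 genes of highest level. This is a description across genes of the same libraries, and genes are not independent replicates.

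**Figure D2:**
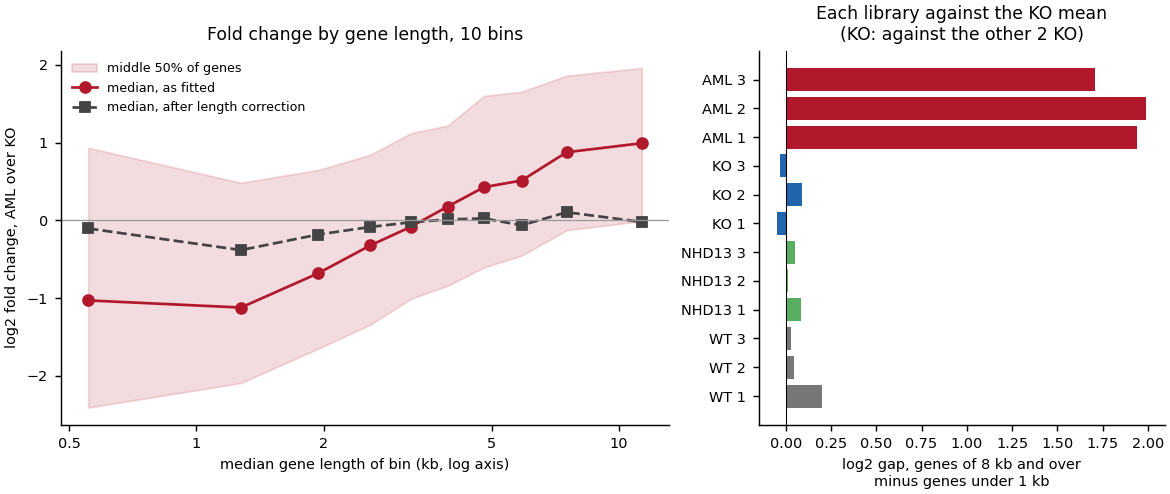
Left, median log2 fold change (AML over KO) in 10 bins of gene length (log axis, kb), as fitted and after the length correction, with the middle 50% of genes shaded; right, the log2 gap between genes of 8 kb and over and genes under 1 kb in each library, with AML, NHD13 and WT libraries set against the KO mean and each KO library against the mean of the other KO libraries. The AML libraries sit at 1.94, 1.99 and 1.71, and the other libraries between -0.0466 and 0.201.

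A second model removed each library's trend with length. It called 13043 genes (80.3%), 6302 of them higher (38.8%) and 6741 lower (41.5%), with a median of -0.06. The 2 models called 5709 genes higher and 5613 lower in common (35.2% and 34.6% of genes tested). The correction turned 411 genes from higher to lower and 66 from lower to higher, and 833 higher and 736 lower calls were lost. Values from this model are given below as length-corrected. Whether the trend stems from RNA or library quality, from the sorted cells or from transcription was not tested.

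The genes with the largest differences were close to on or off. Zic1, a zinc finger transcription factor known from neural development, had no read in any KO, NHD13 or WT library and stood at 36.5, 40.2 and 35.3 CPM in AML, at least 825-fold higher when the KO group is set to 3 reads. Asb2, the substrate-recognition subunit of a ubiquitin ligase that retinoic acid induces in myeloid leukemia cells, also had no KO read and stood at 16.1, 16.99 and 17.1 CPM in AML, at least 369.9-fold higher by the same bound. Both were silent in KO and uniform across the 3 AML libraries. Anpep, the aminopeptidase of the myeloid surface known as CD13, stood at 17.97, 19.8 and 17.6 CPM in AML and had 2 KO reads, a ratio of 611 (95% counting interval 169 to 5052). Dnase1l3, a secreted DNase of phagocytes, stood at 24.7, 24.1 and 23.7 CPM in AML and had 1 KO read (ratio 1603, interval 287 to 63349.8). Tbc1d9 (37.1, 37.7 and 35.5 CPM in AML) and Shtn1, a shootin known from neurons (11.5, 12.4 and 11.8 CPM in AML), had 2 KO reads each.

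Among the losses, Slc25a21, a mitochondrial carrier of oxodicarboxylates, stood at 26.6, 29.8 and 24.8 CPM in KO and had no read in any AML library, at least 658-fold lower. Xlr3b, of an X-linked gene family with near copies that can share reads, stood at 13.8, 15.9 and 13.7 CPM in KO and had no AML read, at least 352-fold lower. Vill, a villin-like actin-binding protein, fell from 26.4, 33.5 and 29.9 CPM to 2 reads over the AML group. Tmem141, a small membrane protein, fell from 11.6, 12.9 and 10.9 CPM to 4 reads over the AML group. Ccdc90b, a coiled-coil protein of mitochondria, fell from 13.3, 16.02 and 13.9 CPM to 4 reads. These genes were expressed in all 3 KO libraries and at or near 0 in all 3 AML libraries. Gene starts of Slc25a21, Xlr3b, Tmem141 and Ccdc90b are taken up again with the methylation data.

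The granule genes split by stage of maturation. Of the 20 primary granule and early granulocyte genes, 16 fell and 4 rose, with a median log2 fold change of -1.72 against 0.07 over all genes tested. Mpo, myeloperoxidase, was the most abundant mRNA of the KO libraries by count. It stood at 24099, 26050 and 25019.7 CPM in KO and at 6158, 6410.3 and 6413 CPM in AML, and every AML library was below every KO library (log2 -1.99 ± 0.09 (SE), adjusted p = 2.92e-13). Elane, neutrophil elastase, went from 18677, 18089 and 21232 CPM to 2427, 2546 and 2462 CPM, without overlap (log2 -2.96 ± 0.08 (SE), adjusted p = 1.62e-16). Nkg7, a granule membrane protein, fell by 3.08 and Gstm1, a glutathione transferase, by 3.0. Plac8, a small cysteine-rich protein of progenitors, fell by 2.59. Against the list's direction, the granulocyte transcription factors Cebpe (53.3, 49.6 and 58.1 CPM in KO, 188, 207 and 190.4 CPM in AML) and Gfi1 (36.9, 38.9 and 35.9 CPM in KO, 189, 189 and 187 CPM in AML) rose by 1.86 and 2.34. After the length correction 15 members were lower and 3 higher, with a median of -1.44.

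Secondary granule and late neutrophil genes moved the other way. Of 28 members, 22 rose, 4 fell and 2 did not pass, with a median of 1.95. Ltf, lactoferrin, stood at 82.3, 92.5 and 79.4 CPM in KO and at 2230.4, 2273 and 2265 CPM in AML (log2 4.73 ± 0.09 (SE), adjusted p = 3.10e-18). Ngp, neutrophilic granule protein, stood at 477, 481 and 435 CPM in KO and at 3508, 3613 and 3599 CPM in AML (log2 2.94 ± 0.09 (SE), adjusted p = 7.92e-16). Neither gene overlapped between the groups, which held for 85.6% of all genes tested. Cd177, a neutrophil surface protein, rose by 5.02, and Itgam, the integrin chain CD11b, by 3.66. The NHD13 marrow held more of these mRNAs than either group for Ngp, with a mean of 16839.5 ± 2589.8 CPM. For Ltf it stood at 1650, 1610 and 1650 CPM, above KO and below AML. S100a9 stood at 1350.4, 1220.1 and 1198 CPM in KO and at 2876, 2787 and 2834 CPM in AML (log2 1.17 ± 0.16 (SE), adjusted p = 3.41e-05). Its partner S100a8 stood at 2339.6, 1889.7 and 1987 CPM in KO and at 2738, 2566 and 2819 CPM in AML, apart by a smaller margin (log2 0.39 ± 0.16 (SE), adjusted p = 0.0437). In the NHD13 libraries, S100a9 stood at 15700, 21200 and 15100 CPM and S100a8 at 18900, 25700 and 18900 CPM, above both groups. The S100a8 call was lost without any 1 of AML replicates 1 to 3 or of KO replicates 2 and 3, with adjusted p from 0.0532 to 0.124. It was also lost with upper-quartile factors (adjusted p = 0.313), with no filter on low counts (0.123) and with a filter of 1 CPM (0.0847). Both are short, and their length-corrected log2 values were 2.16 and 1.33. Members that fell were led by Ly6c2 (3134, 3106 and 2997 CPM in KO, 631, 633 and 599 CPM in AML), an Ly6 surface protein with near copies. Trem3, a myeloid receptor, fell by 0.65, but its length-corrected value was 0.19. The length-corrected median of the list was 2.18, with 25 members higher and 2 lower.

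Per base of transcript, the authors' FPKM values placed S100a9 at 6709 ± 172 FPKM in AML and 2234 ± 149.9 in KO, S100a8 at 4825 ± 282 and 2771 ± 315, Ngp at 3615 ± 50.97 and 353 ± 21.5, and Elane at 3113 ± 46.7 and 18226 ± 1449 (mean ± SD, n = 3 each). Elane was the most abundant of these 4 genes in KO, and S100a9 in AML. Eef1a1, the translation elongation factor, was among the 6 most abundant genes of AML, at 6324, 6424 and 6413 CPM against 4449, 4222 and 4466 CPM in KO. The call of this log2 difference of 0.54 was lost without any single AML or KO library (adjusted p from 0.0536 to 0.0727). It was also lost with upper-quartile factors (0.142) and with no filter on low counts (0.0705). All 6 markers of neutrophils rose, and they summed to 12500 to 12700 CPM in AML and to 4030 to 4620 CPM in KO. The 5 markers of monocytes, of which 3 rose and 2 fell, summed to 466 to 476 CPM in AML and 438 to 489 CPM in KO. In bulk RNA, a different share of cells of a type cannot be told apart from a different amount of RNA per cell.

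**Figure D3:**
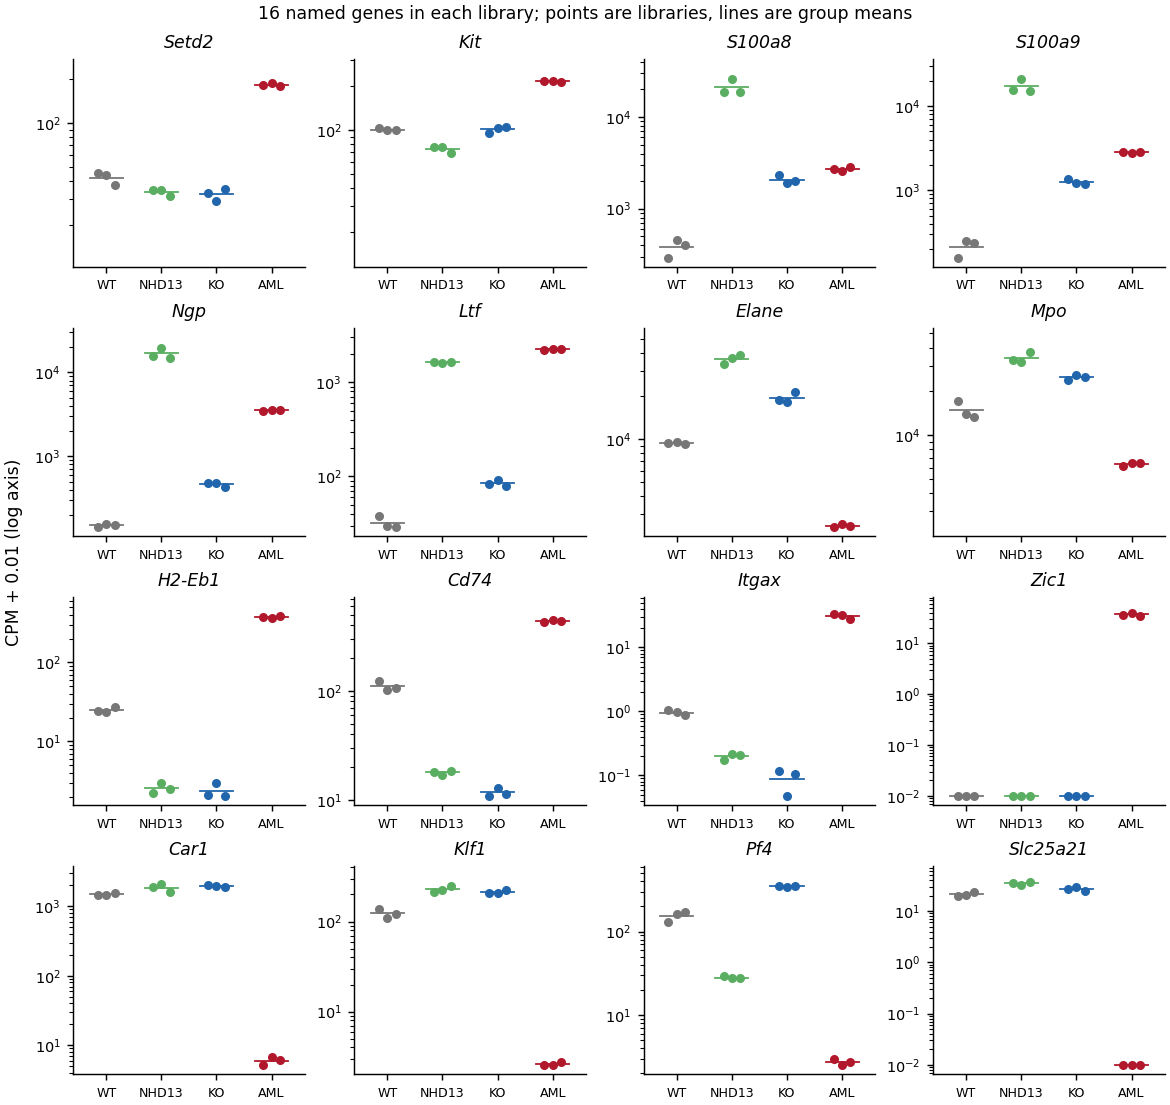
CPM plus 0.01 (log axis) of 16 named genes in each of the 12 libraries (points) with group means (lines). The AML libraries sit above the KO libraries for Ltf, Ngp, H2-Eb1, Cd74, Itgax and Zic1 and below them for Mpo, Elane, Car1, Klf1, Pf4 and Slc25a21.

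Antigen presentation and dendritic cell genes were among the largest rises. Of 24 members, 17 rose, 5 fell and 2 did not pass, with a median of 2.07. H2-Eb1, the beta chain of the class II molecule I-E, stood at 2.11, 2.97 and 2.04 CPM in KO and at 373, 368 and 386 CPM in AML (log2 7.28 ± 0.11 (SE), adjusted p = 3.09e-19). H2-Ab1, the beta chain of I-A, went from 21.3, 24.8 and 21.9 CPM to 572, 619 and 580.5 CPM (log2 4.70 ± 0.10 (SE)). Cd74, the invariant chain that loads class II molecules, went from 10.9, 12.9 and 11.4 CPM to 429, 449 and 438 CPM (log2 5.22 ± 0.09 (SE)). None of these 3 genes overlapped between groups, which held for 85.6% of all genes tested. Their AML level was also above the WT means of 25.1 ± 1.97, 104 ± 15.5 and 110.1 ± 10.5 CPM, in that order. Itgax, the integrin chain CD11c of dendritic cells and some macrophages, had 5 reads over the KO group and stood at 33.1, 32.02 and 28.01 CPM in AML. Tlr9, the endosomal sensor of unmethylated DNA, had 1 KO read and stood at 10.2, 10.3 and 10.2 CPM in AML. Tlr3, the endosomal sensor of double-stranded RNA, had 2 KO reads and stood at 17.4, 17.1 and 19.1 CPM. Zfp366, the dendritic cell zinc finger protein DC-SCRIPT, had 2 KO reads and stood at 17.8, 16.7 and 15.4 CPM. Clec9a, a receptor of cross-presenting dendritic cells, rose by 7.07 and Batf3, a transcription factor of the same cells, by 5.73. Xcr1, a chemokine receptor that defines these cells, rose by 2.44, from 2.16, 1.75 and 2.47 CPM in KO to 11.4, 10.9 and 12 CPM in AML. Zbtb46, which defines conventional dendritic cells, rose by 0.45, from 4.74, 5.06 and 3.99 CPM to 6.51, 6.39 and 6.05 CPM, and its length-corrected value was -0.38. Siglech, a marker of plasmacytoid dendritic cells, had 1 read over the AML libraries and was also low in KO, at 0.263, 0.533 and 0.0949 CPM. The 5 markers of dendritic cells, of which 3 rose and 1 fell, summed to 46.4 to 51.2 CPM in AML and 7.31 to 8.18 CPM in KO. H2-DMa, which edits class II peptides, fell by 1.45, and Bst2, an interferon-induced membrane protein, fell by 0.99 (adjusted p = 0.196 after the length correction). After that correction 17 members were higher and 4 lower, with a median of 1.86. The part of dendritic cells in these values was not tested.

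Monocyte and macrophage genes went both ways: 11 of 24 rose, 8 fell and 5 did not pass, with a median of 0.33 that became -0.13 after the length correction. Mpeg1, the pore-forming perforin-2 of macrophages, rose from 10.6, 9.86 and 10.96 CPM to 273, 269 and 273 CPM. Fn1, fibronectin, rose from 1.74, 2.13 and 2.18 CPM to 55.4, 56.4 and 56.1 CPM, and Klf4, a monocyte transcription factor, by 2.43. C5ar1, the receptor for complement C5a, rose by 2.03. Ms4a6c fell from 155, 152 and 129.5 CPM to 26.1, 24.7 and 30 CPM, and Cd68, a lysosomal glycoprotein of macrophages, fell by 1.24. Of 12 tested genes of red pulp macrophages, the iron-recycling macrophages of spleen, 10 rose and 0 fell, with a median of 1.88. With the length correction 8 were higher and 1 lower, with a median of 2.22. Their levels were low: Cd5l reached 2.76, 2.04 and 1.87 CPM in AML against 0.105, 0.0381 and 0.0949 CPM in KO, C1qa 5.64, 6.26 and 6.16 against 0.5797, 0.457 and 1.04 CPM, Hmox1, heme oxygenase, 11.7, 12.3 and 12.7 against 2.74, 3.23 and 2.09 CPM, and Axl, a receptor kinase that binds dying cells, 8.96, 8.81 and 7.37 against 1.79, 1.98 and 2.09 CPM. Their AML and KO libraries did not overlap, which held for 85.6% of all genes tested. Spic, the transcription factor that defines these macrophages, stood at 0.733, 0.724 and 0.546 CPM in AML and at 0.896, 0.266 and 0.759 CPM in KO, which overlapped. The 5 markers of red pulp macrophages, of which 4 rose, summed to 27.8 to 28.7 CPM in AML and 10.6 to 11.6 CPM in KO, and their part in the comparison was not tested.

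Erythroid genes had the lowest median of the 41 lists. Of 32 tested, 25 fell, 6 rose and 1 did not pass, with a median of -2.66 (-2.49 length-corrected, 26 lower and 2 higher). Car1, carbonic anhydrase 1 of early erythroid cells, stood at 2018, 1956 and 1878 CPM in KO and at 5.21, 6.69 and 6.12 CPM in AML (log2 -8.34 ± 0.12 (SE), adjusted p = 1.95e-19). Car2, a second carbonic anhydrase, went from 2612, 2469 and 2345 CPM to 42.9, 37.1 and 43.9 CPM (log2 -5.91 ± 0.10 (SE)). Klf1, the erythroid master transcription factor, went from 209, 207 and 222 CPM to 2.54, 2.55 and 2.73 CPM (log2 -6.34 ± 0.11 (SE)). Blvrb, biliverdin reductase B, fell by 5.28. Epor, the erythropoietin receptor, went from 47.2, 47.6 and 44.6 CPM to 3.88, 4.73 and 4.21 CPM. The KO and AML libraries of these 5 genes did not overlap, which held for 85.6% of all genes tested. The 6 erythroid markers summed to 443 to 460 CPM in KO and 14.3 to 16 CPM in AML. Against that direction, Hbb-bt, a beta globin with near-identical copies, was at 8.06, 7.61 and 8.73 CPM in KO and 48.1, 50.7 and 53.3 CPM in AML, and Epb41, the membrane skeleton protein 4.1, rose by 1.38 (0.26 length-corrected). Heme synthesis and iron genes fell in 13 and rose in 6 of 22, with a median of -0.84 (-1.0 length-corrected). Alad, an early enzyme of heme synthesis, went from 188, 197 and 206 CPM to 12.5, 12.7 and 13.5 CPM. Fth1, the ferritin heavy chain, fell from 5469, 4688 and 5347 CPM to 341, 359 and 348 CPM. Slc25a37, the mitochondrial iron importer, rose from 18.9, 16.8 and 20.1 CPM to 149, 154 and 150 CPM.

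Genes of other marrow lineages were mostly lower. Of 19 megakaryocyte and platelet genes tested, 11 fell and 3 rose, with a median of -0.72 (-1.02 length-corrected). Pf4, platelet factor 4, went from 348, 345 and 355 CPM to 2.97, 2.51 and 2.73 CPM (log2 -6.99 ± 0.11 (SE), adjusted p = 3.09e-19), and Gfi1b, a repressor needed for red cells and platelets, went from 128, 139.9 and 138 CPM to 8.49, 9.37 and 8.82 CPM. Selp, P-selectin, and Thbs1, thrombospondin 1, are platelet proteins that rose, from 3.06, 2.66 and 2.37 to 53.4, 48.9 and 47.8 CPM and from 3.37, 4.22 and 3.61 to 106, 109 and 106 CPM. Of 19 mast cell, basophil and eosinophil genes tested, 14 fell and 2 rose, with a median of -2.02 (-1.43 length-corrected). Cpa3, the mast cell carboxypeptidase, went from 249, 244 and 223 CPM to 5.34, 4.47 and 6.01 CPM, and Ms4a2, a chain of the IgE receptor, from 42.9, 42.2 and 40.2 CPM to 4.27, 4.003 and 5.27 CPM. Cma1, mast cell chymase, went from 8.17, 11.1 and 7.55 CPM to 2 reads over the AML group. Fcer1a, the defining chain of the IgE receptor, had no read in either group. Prg3, an eosinophil granule protein, fell by 2.03, while Ccr3 and Il5ra, eosinophil receptors, rose at low levels (1.25, 1.49 and 0.975 and 2.198, 2.13 and 2.18 CPM in AML). The share of these lineages in each sorted sample was not measured.

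Genes of lymphoid and stromal cells went both ways. Of 18 B lymphoid genes tested, 7 rose and 5 fell, and 6 did not pass, with a median of 0.72 (0.25 length-corrected). Ighm, the constant gene of IgM, rose from 151, 203 and 180.3 CPM to 1119, 1135 and 1121 CPM, and Cd79a, a chain of the B cell receptor, stood at 4.01, 3.28 and 3.74 CPM in AML and 0.738, 0.875 and 0.664 CPM in KO. Its partner Cd79b fell from 60.02, 64.3 and 59.1 CPM to 15.7, 15.5 and 15.6 CPM. The 5 markers of B cells summed to 21.3 to 22.5 CPM in AML and 61.3 to 66.4 CPM in KO, but 3 of them rose and 2 fell, and Cd79b made up most of the sum in every library. Of 14 T and NK genes tested, 6 rose, 2 fell and 6 did not pass, with a median of 0.11 (0.43 length-corrected). Cd8a reached 2.07, 1.49 and 2.07 CPM in AML against 0, 0.0381 and 0.0475 CPM in KO. Gzmb, granzyme B, fell from 112, 119 and 115 CPM to 0.905, 0.724 and 0.234 CPM. The markers of T and NK cells summed to 5.02 to 6.08 CPM in AML and 3.8 to 4.48 CPM in KO. Ncr1, which defines NK cells, had no AML read, stood at only 0.0527, 0.0381 and 0.0475 CPM in KO and was not called. Jchain, of plasma cells, stood at 35, 32.7 and 33.9 CPM in AML and at 3.64, 2.97 and 7.07 CPM in KO, while 4 plasma cell markers summed to 167 to 171 CPM in AML and 313 to 328 CPM in KO. Of these 4, 2 rose and 1 fell, and the sum followed Xbp1, a factor of secretory cells in general, at 131, 135 and 130 CPM in AML and 308, 312 and 320 CPM in KO. Of 10 stromal and endothelial genes tested, 5 rose and 1 fell, with a median of 0.89 (0.68 length-corrected). Stab2, a scavenger receptor of sinusoidal endothelium, stood at 1.42, 1.02 and 1.64 CPM in AML and had 2 reads over the KO group, and Col1a1, a collagen chain of stroma, rose from 0.105, 0.0381 and 0.285 CPM to 1.29, 1.19 and 1.17 CPM. Pdgfrb rose from 19.6, 20.7 and 20.03 CPM to 58.6, 61.96 and 59.96 CPM and Pecam1 from 35.6, 40.3 and 35.5 CPM to 101, 104 and 100.4 CPM, and both also occur in blood cells. Cdh5, which defines endothelium, did not pass the filter on low counts and stood at 0.603, 0.383 and 0.273 CPM in AML and 0, 0.0761 and 0 CPM in KO. The 6 markers of stroma or endothelium, of which 2 rose, summed to 61.1 to 63.6 CPM in AML and 20.1 to 21 CPM in KO, most of it Pdgfrb, and their part in the comparison was not tested. Cxcl12, the niche chemokine of marrow stroma, stood at 0.896, 0.342 and 0.285 CPM in KO and 0.302, 0.0426 and 0 CPM in AML, which overlapped, and its call was lost without AML replicate 2, AML replicate 3 or KO replicate 1 (adjusted p 0.0651, 0.0714 and 0.118).

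Stem and early progenitor genes were divided, with 14 of 28 higher and 10 lower and a median of 0.22. After the length correction 12 were higher and 13 lower, with a median of -0.07. Mycn, a Myc family transcription factor, went from 6.01, 7.99 and 5.695 CPM to 65.2, 68.1 and 68.1 CPM (log2 3.34 ± 0.14 (SE)), and Erg, an Ets factor of stem cells, from 12.2, 11.2 and 11.1 CPM to 114, 110.3 and 108 CPM (log2 3.27 ± 0.08 (SE)). Cd48, a marker of cells beyond the stem cell stage, fell from 262, 269 and 239 CPM to 76.4, 69.8 and 75.1 CPM. Flt3 stood at 93.1, 90.4 and 90 CPM in AML and at 37.6, 31.3 and 35.5 CPM in KO. The Hox, Meis and Pbx list had 23 of 32 members tested, with 14 higher and 8 lower and a median of 0.72. With the length correction 12 were higher and 10 lower, with a median of 0.86. Hoxa5 rose from 9.12, 8.6 and 11.01 CPM to 38.7, 39.5 and 36.9 CPM, and Hoxa3 from 1.74, 1.52 and 0.5695 CPM to 20.9, 22.4 and 20.3 CPM. Hoxa7 fell from 117, 131 and 127 CPM to 77.7, 75.8 and 71.2 CPM, and Hoxc5 from 35.4, 37.2 and 36.5 CPM to 12.8, 11.9 and 12.4 CPM. Pbx2, a cofactor of Hox proteins, rose by 4.24. In the fetal blood program, 8 of 11 tested members rose and 0 fell, with a median of 0.74. After the length correction 5 were higher and 3 lower, with a median of 0.11, and the members tested had a median length of 6808 bases. Lin28a, an RNA-binding protein of embryonic cells, rose from 1.001, 0.685 and 0.617 CPM to 27.1, 23.5 and 24.5 CPM, Hmga2 by 1.71 and Arid3a by 2.20. Lin28b rose by 0.98, which the length correction reduced to 0.11 (adjusted p = 0.348).

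Among 27 genes known from leukemia, 14 rose and 7 fell, with a median of 0.71 (0.16 length-corrected, 13 higher and 12 lower). Cebpa, the transcription factor that starts granulocyte development, went from 7.905, 9.02 and 10.01 CPM to 221, 243 and 221 CPM (log2 4.66 ± 0.09 (SE), adjusted p = 3.23e-18), and every AML library lay above every KO library. Cebpb, which acts in emergency granulopoiesis, went the other way, from 92.6, 87.4 and 106 CPM to 26.4, 28.3 and 24.3 CPM. Prdm16, a stem cell regulator, fell from 13.4, 15.7 and 13.9 CPM to 2.198, 2.09 and 2.11 CPM. Etv6 rose by 1.72, and Cbl, a ubiquitin ligase that turns off receptor kinases, by 3.26.

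Growth factor and cytokine receptors rose in 18 and fell in 7 of 27 tested, with a median of 1.10 (0.60 length-corrected). Il6ra, the interleukin-6 receptor, went from 8.38, 7.88 and 10.7 CPM to 101, 107 and 103 CPM, and Csf2rb, the shared beta chain of the GM-CSF receptor, from 41.9, 47.5 and 43.2 CPM to 231, 242 and 220.3 CPM. Ifngr1, a chain of the interferon gamma receptor, fell from 604, 629 and 609.9 CPM to 208, 222 and 211 CPM. Of 25 genes of Ras, MAP kinase and PI3 kinase feedback, 20 rose and 5 fell, with a median of 1.23 (0.54 length-corrected). Sh2b3, the adaptor that restrains JAK2, rose by 2.73, Spred2, a Ras pathway inhibitor, by 2.33, and Inpp5d, the lipid phosphatase SHIP1, by 1.30. Spry1, a Sprouty inhibitor, fell from 14.8, 17.8 and 18.4 CPM to 2.24, 2.21 and 2.69 CPM, and Dusp6, an ERK phosphatase, fell by 0.88. Homing and adhesion genes rose in 15 and fell in 6 of 24, with a median of 1.43 (0.94 length-corrected). Itgal, the integrin chain LFA-1 alpha, went from 29.04, 31.4 and 30.5 CPM to 282, 286 and 273 CPM, and Itgb2, its partner, from 56.97, 65.6 and 63.1 CPM to 308, 318 and 305 CPM. Cd33 rose by 3.78. Cd47, the surface signal against phagocytosis, fell from 1134, 1016 and 1143 CPM to 283, 289 and 281 CPM.

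Acute response genes were mostly lower in the spleen cells. Of 23 tested genes of the TLR4 and NF-kappaB response, 14 fell and 7 rose, with a median of -0.78 (-0.68 length-corrected). Nfkbia, the inhibitor that NF-kappaB induces, went from 1231, 1236 and 1356 CPM to 67.5, 66.2 and 65.96 CPM (log2 -4.26 ± 0.09 (SE), adjusted p = 3.40e-18). Ccl3 went from 220.2, 206 and 198 CPM to 4.57, 4.47 and 3.86 CPM, Ccl4 from 138, 129 and 132 CPM to 1.47, 1.06 and 0.975 CPM, and Cxcl10 from 89.1, 89.2 and 91.1 CPM to 0.302, 0.341 and 0.624 CPM. These chemokines were expressed in all KO libraries and nearly absent in all AML libraries. Ager, the RAGE receptor for S100 proteins, rose from 0.422, 0.609 and 0.664 CPM to 7.15, 7.71 and 7.61 CPM. Nfkb1 rose by 0.87, but its length-corrected value was -0.14 (adjusted p = 0.0463). Immediate early and heat shock genes fell in 19 and rose in 5 of 24, with a median of -1.36 (-1.48 length-corrected). Klf6 went from 402, 406 and 417 CPM to 44.2, 43.1 and 39.5 CPM, Ier3 from 364, 364 and 378 CPM to 35.7, 37.3 and 38.4 CPM and Dusp2 from 657, 626 and 672 CPM to 86.8, 88.7 and 85.3 CPM. Fosb, an AP-1 subunit, went against them, from 22.5, 17.2 and 26.9 CPM to 561, 569.7 and 527 CPM, as did Hspa1b, an inducible HSP70 with a near-identical neighbour, from 1.37, 2.05 and 1.09 CPM to 21.3, 22.3 and 19.8 CPM. Immediate early genes also move with handling of cells, and no measure of handling was used here. Interferon response genes were even, with 16 of 33 higher and 16 lower: Oas3, an antiviral RNA sensor, went from 3.11, 4.38 and 4.75 CPM to 51.6, 55.02 and 54.9 CPM and Oas2 from 7.27, 6.43 and 8.02 CPM to 53.7, 53.4 and 51.1 CPM, while Ifitm2 fell by 1.67. Their median was -0.31 and 0.29 after the length correction.

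More of the listed cell cycle genes fell than rose. Of 24 G2/M genes, 16 fell and 7 rose, with a median of -0.50 (-0.53 length-corrected, 16 lower and 4 higher). Ube2c fell by 2.12, Birc5, survivin, by 2.18, Cdk1 by 1.32 and Ccnb2 by 1.20. Mki67, the Ki-67 antigen, went from 118, 115 and 118 CPM to 329, 327 and 316 CPM, a log2 rise of 1.47 (0.55 length-corrected). Of 26 S phase genes, 14 fell and 6 rose, with a median of -0.28 (-0.35 length-corrected, 17 lower and 4 higher). Tyms, thymidylate synthase, fell by 2.07, and Slbp, which binds the end of histone mRNAs, by 1.83. Pole, a replicative polymerase, and Ung, which removes uracil from DNA, rose by 1.92 and 3.21. Replication-dependent histone genes, whose mRNAs lack a poly(A) tail and whose family members are near-identical in part, fell in 21 and rose in 1 of 24, with a median of -2.24 (-1.41 length-corrected). Hist1h2ae went from 218, 129.8 and 241 CPM to 0.733, 0.596 and 0.585 CPM and Hist1h2bc from 133, 124 and 131 CPM to 18.8, 18.1 and 17.7 CPM. These are short genes, with a list median of 742 bases, in a class whose median was -1.06.

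Of 23 p53 response genes, 10 rose and 11 fell, and after the length correction 11 did not pass. Cdkn1a, the inhibitor p21, went from 158, 158 and 186 CPM to 17.7, 16.7 and 17.2 CPM, while Mdm4, which restrains p53, rose by 2.48. In the Bcl2 family 6 of 15 rose and 5 fell. Bak1, a pore-forming death effector, went from 2.48, 1.18 and 2.66 CPM to 82.8, 90.6 and 77.9 CPM (log2 5.35 ± 0.20 (SE)), and Bmf from 0.105, 0.419 and 0.475 CPM to 7.45, 8.86 and 7.41 CPM. Bad and Bid, which promote cell death, fell by 1.45 and 1.26. Of 35 DNA repair genes, 20 rose and 10 fell, with a median of 0.41 (-0.07 length-corrected, 16 higher and 13 lower). Ercc2, a helicase of nucleotide excision repair, went from 1.48, 1.52 and 0.997 CPM to 20.1, 19.5 and 21.5 CPM, and Nbn, of the complex that senses double-strand breaks, fell by 1.37.

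Most of the chromatin regulators listed rose, and they are long genes. Of 23 genes of H3K36 methylation and its readers, 19 rose and 2 fell, with a median of 1.54, and their median length was 6779 bases. Nsd2 went from 33.4, 31.8 and 33.7 CPM to 159, 158 and 155 CPM and Nsd3 from 28.4, 25.1 and 23.8 CPM to 131, 135 and 124 CPM; both are methyltransferases of H3K36. Supt6, an elongation factor that travels with RNA polymerase II, rose by 2.34. Psip1, which reads H3K36 methylation, fell from 164, 143 and 157 CPM to 72.8, 71.5 and 70.1 CPM. After the length correction 15 were higher and 4 lower, with a median of 1.03. In the MLL family, menin and Dot1l list, 16 of 20 rose and 4 fell (median 1.57, 0.89 length-corrected). Kmt2a, the gene MLL1, went from 29.4, 27.2 and 32.7 CPM to 182, 183 and 171 CPM and Setd1b from 6.38, 5.71 and 6.69 CPM to 109, 117 and 108 CPM, while Dpy30, a short core subunit of these complexes, fell from 291, 278 and 282 CPM to 47.8, 52.6 and 49.97 CPM. Polycomb genes rose in 24 and fell in 7 of 33 (median 1.29, 0.40 length-corrected). Phf1 rose by 3.23 and Cbx6 by 3.03, and Rbbp7, a histone-binding subunit, fell by 1.29. Genes of DNA methylation rose in 13 and fell in 3 of 18 (median 1.04, 0.58 length-corrected, 10 higher and 6 lower). Dnmt3b, a de novo methyltransferase, went from 45.4, 50.2 and 46.4 CPM to 133, 132 and 127 CPM and Tet3, which oxidizes methylcytosine, from 31.2, 29.8 and 31.8 CPM to 144, 146 and 136 CPM. Idh2, whose mutant form blocks that oxidation, fell by 1.12.

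Large nuclear and cytoskeletal proteins, a list chosen for gene length, rose in 31 and fell in 2 of 34, with a median of 2.23 that became 0.97 after the length correction. Nbeal2, a platelet granule protein, rose by 4.30 (3.41 length-corrected), Syne1, nesprin-1, by 3.35 (1.93), and Vps13d by 3.06 (1.78). Dst, dystonin, fell by 0.54, with overlapping groups (2.21, 1.64 and 1.66 CPM in KO, 1.12, 1.66 and 0.975 CPM in AML). Its call was lost without AML replicate 1, AML replicate 3 or KO replicate 1 (adjusted p 0.105, 0.16 and 0.159). It was also lost with library totals (0.589) and with no filter on low counts (0.0669).

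Genes of the respiratory chain, the mitochondrial ribosome and the proteasome fell almost throughout. Of 75 nuclear genes of the respiratory chain, 73 fell and 0 rose, with a median of -2.33; they have a median length of 1675 bases, in a class with a median of -0.98. Atp5g1, a subunit of the ATP synthase ring, went from 1084, 1033 and 1085 CPM to 105, 111 and 105 CPM (log2 -3.32 ± 0.06 (SE), adjusted p = 1.20e-18), and Ndufa11, of complex I, from 267, 264 and 269 CPM to 31.8, 31.9 and 30.3 CPM. Uqcr11, of complex III, fell by 3.28. After the length correction 74 of 75 were lower and 1 was higher, with a median of -1.68. Of 74 mitochondrial ribosomal proteins, 73 fell and 0 rose (median -1.92, -1.71 length-corrected, 69 lower and 2 higher). Mrps14 went from 323, 323 and 307 CPM to 34.9, 35.5 and 34.9 CPM and Mrpl42 from 417, 406 and 395 CPM to 45.4, 47.4 and 45.9 CPM. Of 37 proteasome genes, 36 fell and 0 rose (median -1.71, -1.51 length-corrected, 37 lower). Psmb2, a beta subunit, went from 788, 769.9 and 771 CPM to 78.9, 85.04 and 80.7 CPM and Psma3, an alpha subunit, from 726, 718 and 704 CPM to 102, 105 and 109 CPM. The lower share in these 3 lists lay above the 39.5% over all genes and, after the length correction, above its 41.5%.

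Genes of the mitochondrial genome went both ways. Of 14 tested, 8 were lower and 1 higher, with a median of -0.65, and after the length correction 7 were higher and 3 lower, with a median of 0.27. mt-Co1, of cytochrome oxidase, went from 2949.7, 2787 and 2805 CPM to 5480.2, 5482 and 5557 CPM, mt-Cytb, cytochrome b, from 4793, 4298 and 4115 CPM to 1931, 1916 and 1953 CPM, and the ribosomal RNA mt-Rnr2 from 2924, 2416 and 2396 CPM to 128, 130.5 and 136 CPM. mt-Nd6 fell by 0.66, but its length-corrected value was 0.33. Cytosolic ribosomal proteins, of like length to the respiratory genes at 1739 bases, went both ways: 25 of 79 rose, 37 fell and 17 did not pass, with a median of -0.14 (0.26 length-corrected, 41 higher and 17 lower). Rpl28 rose from 501, 454 and 536 CPM to 1463, 1543 and 1531 CPM; ribosomal protein genes have processed copies that can take reads. Splicing factors fell in 18 and rose in 10 of 33 (median -0.44, -0.86 length-corrected). Snrpd1, a core snRNP protein, fell by 2.35, and U2af2, which binds the polypyrimidine tract, rose by 3.19. Myc targets and ribosome biogenesis genes fell in 18 and rose in 9 of 30 (median -0.52, -0.59 length-corrected). Nme1, a nucleoside diphosphate kinase, fell by 3.20 and Cdk4 by 1.49, while Cad, which starts pyrimidine synthesis, rose by 2.14. Glycolysis and hypoxia genes rose in 16 and fell in 7 of 24 (median 0.59, 0.02 length-corrected): Slc2a3, a glucose transporter, rose by 2.71, Vegfa by 2.37 and Ddit4, an inhibitor of mTORC1, by 5.53, whereas Ldha, lactate dehydrogenase A, went from 2295, 2362 and 2384 CPM to 605, 639.7 and 637 CPM.

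**Figure D4:**
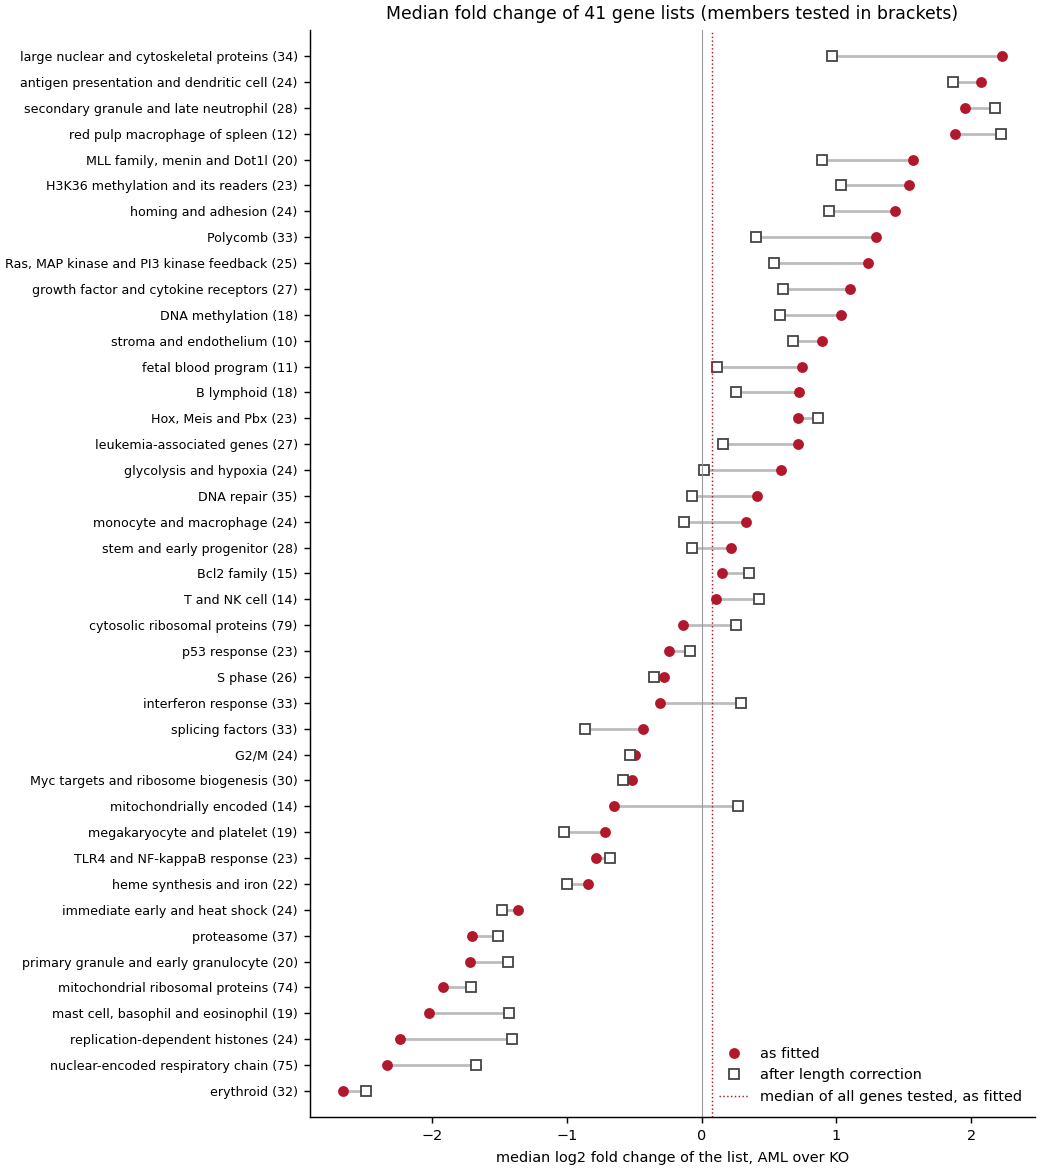
Median log2 fold change (AML over KO) of each of the 41 gene lists as fitted (filled circles) and after the length correction (open squares), with the median of all genes tested, 0.07, as a dotted line. Erythroid genes are lowest at -2.66, and the list of large proteins moves most with the correction, from 2.23 to 0.97.

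DNA methylation was measured in 1 whole-genome bisulfite library per group, so its differences have no replicate check. The authors' table of differently methylated regions between KO and AML held 106032 regions, of which 77.8% lost and 22.2% gained methylation in AML. Except where a cutoff is stated, a region counted as a gain or loss at any difference, down to 0.00845 percentage points. Regions that gained held a median of 13 CpG sites and regions that lost a median of 6. Starts were placed for 10324 protein-coding genes tested, 80.8% of such genes, from RefSeq. A region with a gain lay within 1 kb of the start of 11.1% of genes that fell (95% Wilson interval 10.2 to 12.1) and of 10.7% of genes that rose (9.82 to 11.6), against 11.6% of all genes placed (11 to 12.3). These intervals overlapped. When only differences in methylation of at least 0.3 were counted, they did not, at 5.24% of genes that fell (4.59 to 5.97) and 3.77% of genes that rose (3.27 to 4.35). A region with a loss lay there for 9.04% of genes that rose (8.26 to 9.89) and 5.24% of genes that fell (4.59 to 5.97), against 7.45% of all. With calls alike after the length correction, 9.49% of higher genes (8.59 to 10.5) and 5.2% of lower genes (4.53 to 5.97) had a loss. For a gain, the intervals of these classes overlapped. Losses of at least 0.3 lay at 1.47% of genes that rose (1.17 to 1.86) and 0.998% of those that fell (0.733 to 1.36). The intervals for these larger losses overlapped. By gene length, a gain lay at 7.1% of genes under 1 kb and at 15.3% of genes of 8 kb and over. A loss lay at 8.71% and 8.6% of these genes, and at 6.33% of genes of 1 to 2 kb. Among genes lower at least 4-fold, 24.3% had a gain (21.8 to 27.1) and 3.55% a loss (2.56 to 4.9). Among genes higher at least 4-fold, 16% had a gain (14.3 to 17.9) and 10.1% a loss (8.75 to 11.7), and among genes not called 15.9% had a gain (14.2 to 17.8) and 8.29% a loss. The share with a gain was thus above that of all genes placed in genes lower at least 4-fold. The values of the other classes just named also lay above it, but no conclusion is drawn from them. Starts were placed for 81.4% of the genes lower at least 4-fold but for 78.9% of those higher at least 4-fold and 79.6% of those not called, under the 80% required here, so the check is void for the latter classes and their shares are given as values only. Genes with only a gain within 1 kb of the start had a median log2 fold change of RNA of 0.05 (-0.16 length-corrected), genes with only a loss 0.57 (0.31), and genes with neither 0.12 (-0.12). Within 250 bases the medians were -0.09 (-0.42), 1.07 (0.57) and 0.15 (-0.11), in the same order.

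Named genes at both ends showed such regions over the start. The 250 bases before the start are shown for 2 genes that gained methylation and were close to off in AML, Tmem141 (chr2:25622006-25622255, minus strand) and Ccdc90b (chr7:92560899-92561148, plus strand), for 1 that gained methylation and rose, Syne1 (chr10:5550693-5550942, minus strand), and for 1 that lost methylation and was switched on, Asb2 (chr12:103356002-103356251, minus strand). They are from RefSeq (GRCm38.p6, the assembly also named mm10), written 5′ to 3′ on the strand of the gene, with each CpG site in capitals.
Tmem141: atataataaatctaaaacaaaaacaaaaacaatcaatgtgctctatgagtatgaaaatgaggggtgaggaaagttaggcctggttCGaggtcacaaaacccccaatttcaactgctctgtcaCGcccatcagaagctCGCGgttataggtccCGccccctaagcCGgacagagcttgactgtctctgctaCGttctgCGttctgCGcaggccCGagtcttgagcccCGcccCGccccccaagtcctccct
Ccdc90b: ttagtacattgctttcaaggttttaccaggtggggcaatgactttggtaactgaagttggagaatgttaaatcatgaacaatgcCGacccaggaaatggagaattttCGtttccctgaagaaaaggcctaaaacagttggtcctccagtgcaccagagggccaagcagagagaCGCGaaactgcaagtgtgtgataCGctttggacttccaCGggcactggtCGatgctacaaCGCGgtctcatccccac
Syne1: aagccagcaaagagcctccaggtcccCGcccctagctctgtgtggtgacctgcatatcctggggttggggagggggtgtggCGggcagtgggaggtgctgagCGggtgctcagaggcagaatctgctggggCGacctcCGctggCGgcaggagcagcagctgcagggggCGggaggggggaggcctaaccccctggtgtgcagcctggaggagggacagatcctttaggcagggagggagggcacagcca
Asb2: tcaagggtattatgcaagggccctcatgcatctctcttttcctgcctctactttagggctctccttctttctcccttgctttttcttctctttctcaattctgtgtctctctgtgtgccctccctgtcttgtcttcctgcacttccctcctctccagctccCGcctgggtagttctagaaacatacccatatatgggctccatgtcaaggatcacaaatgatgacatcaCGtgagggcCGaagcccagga

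The Tmem141 window held 12 CpG sites, all inside the region that gained, and the Ccdc90b window 9, all inside. Syne1 had 7, of which 6 lay inside its region, and Asb2 had 3, all inside. As many or more CpG sites stood in 33.4%, 40.2%, 46% and 70% of the 27025 promoters of the RefSeq table for the 4 genes in that order, where the median was 5. The region over the Tmem141 start went from 36.7% methylation in KO to 87.1% in AML over 68 sites, and the Ccdc90b region from 21.6% to 58.7% over 142 sites. The start of Slc25a21 lay in a region that went from 38.1% to 89.7% over 143 sites, and that of Xlr3b in one that went from 66.2% to 95.1% over 27 sites. The Asb2 region went from 76.9% to 55.6% over 24 sites. At Selp a region 14 bases from the start went from 85.2% to 25.8% over 55 sites, beside its rise in RNA of 4.22. Ms4a2, which fell by 3.21, gained from 55.3% to 96.3%, over 4 sites.

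Other named genes went against that pairing. The Syne1 region went from 46.5% to 91.2% over 92 sites while its RNA rose by 3.35 (29.04, 25.8 and 26.8 CPM in KO, 282, 279.8 and 269 CPM in AML). Axl gained from 50.8% to 92.4% and Hspa1b, 196 bases from its start, from 35.4% to 77.8%, while their RNA rose by 2.09 and 3.77. Elane lost, from 83.6% to 55.5% at 202 bases from its start, and Ccl3 from 37.5% to 5.66% at 227 bases, while their RNA fell by 2.96 and 5.60. Zic1 had 1 region that lost (24.1% to 9.17%) at 659 bases and 1 that gained (48% to 72.5%) at 944 bases. Of the 177 named genes with a placed start, 40 (22.6%) had a region within 1 kb, against 18.5% of all genes placed. Regions that only gained lay at 11 genes that fell and 8 that rose, regions that only lost at 11 that rose and 9 that fell, and Zic1 had both. Over all genes placed, regions that only gained lay at 433 genes that fell and 468 that rose. Regions that only lost lay at 391 that rose and 198 that fell.

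**Figure D5:**
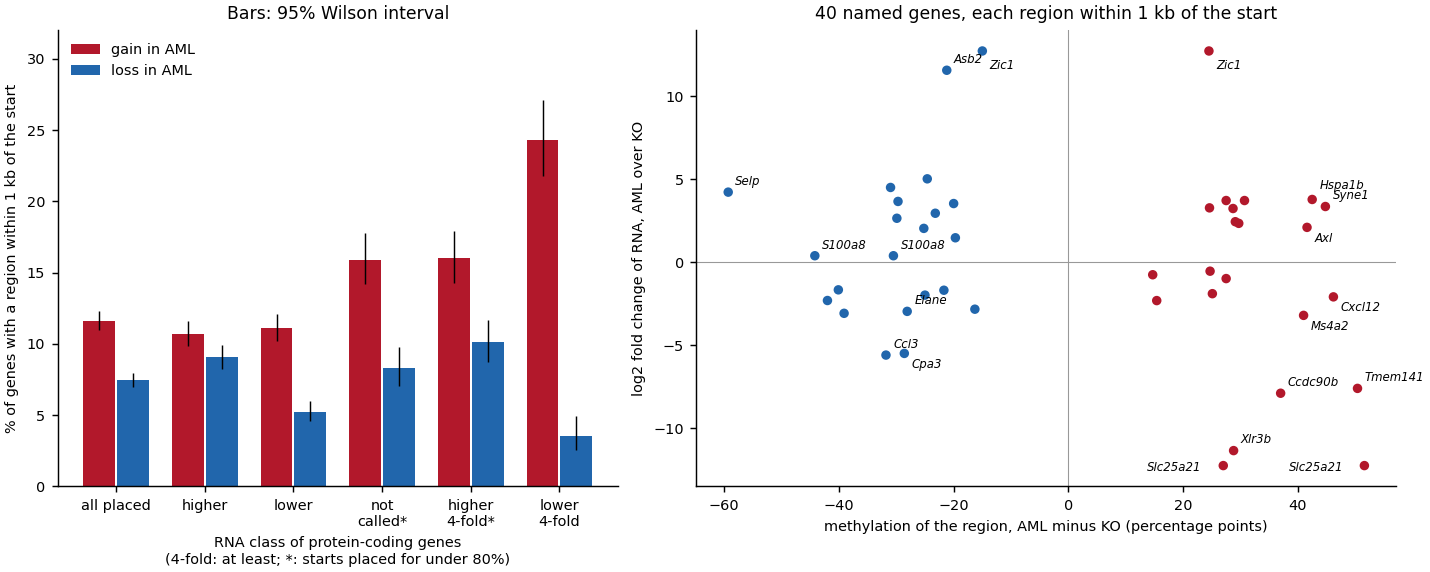
Left, percent of protein-coding genes with a region of gained or lost methylation within 1 kb of the start, by RNA class, with 95% Wilson intervals; right, the methylation difference of each such region of 40 named genes (AML minus KO, percentage points) against the log2 fold change of RNA. Gain was found at 24.3% of genes lower at least 4-fold, 16% of genes higher at least 4-fold, 15.9% of genes not called and 11.6% of all genes placed (asterisks mark classes with starts for under 80% of genes), and named genes fall on both sides of 0 on both axes of the right plot.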

How the data were processed

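Per the labels' protocols, cells were flow-sorted and RNA-seq libraries prepared with a NEBNext Ultra kit. The authors deposited raw read counts per gene and FPKM values (counts scaled to gene length and library size) with a gene length, and the submitters' processing notes name HISAT2 2.0.5, HTSeq 0.9.1, Bismark 0.19.0 and mm10. No source used here states a strand setting, so reads of overlapping antisense genes cannot be told apart. The tables of differently methylated regions, with a methylation fraction per side, are the authors' deposited values. The labels' order of the sides was checked on 2467 regions shared with a second table (correlation of the KO sides 0.9999). Its coverage is unknown, and Wilson intervals cover counting of genes only.

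Counts were tested with edgeR 4.0.16 (R 4.3.3, limma 3.58.1): TMM scaling, filterByExpr over the 4 groups, a robust quasi-likelihood fit of 12 libraries with 8 residual degrees of freedom, and Benjamini-Hochberg adjustment over all 16233 genes tested at 0.05. All groups were fitted together so that they shared 1 estimate of the spread. The length correction took a lowess curve (span 0.5) of each library's log2 CPM deviation on log2 gene length as an offset. The script was tested on simulated data. CPM values use TMM-scaled library sizes. A gene with no count in 1 group was given a bound from a floor of 3 counts over that group, and ratios with 1 to 3 counts carry an exact 95% interval for counting error. FPKM values were used for levels only.

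The 41 gene lists, the comparison and the rule for named genes were chosen with earlier results of these data known. The rule took Setd2, Kit, S100a8 and S100a9, the 12 largest rises and 12 largest falls past the threshold (10 CPM or more where higher, libraries of the groups apart, called alike after length correction), the 6 genes highest in FPKM in each group, and, per list, the 4 members with the smallest p and 2 more against the list's direction. Some genes that the rule takes are not reported here. Markers of other cell types were named beside these. Flt3, Ly6a, Hlf, Mecom, Xcr1, Zbtb46, Siglech, Spic, Cdh5, Ncr1, Jchain, Xbp1, Col1a1, Cd34, Fcer1a, Clec9a and Batf3 were taken from the lists after their values were seen. The main model did not pair samples by replicate number, as nothing in the labels pairs them. Alternatives were another scaling, tool, filter or set of libraries, the replicate block, and leaving out each library. The H3K36me3 peak lists were not used here.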

Additional observations from a re-analysis of the deposited data

How the results depend on the processing

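The counts of higher and lower genes kept within 1.5 times of the main counts under every alternative that kept the filter or made it stricter, with 5945 to 8395 higher and 5017 to 7056 lower, and were 7825 and 7094 of 30604 genes tested with no filter. DESeq2 called 6829 and 6398. Leaving out 1 AML or KO library gave 6850 to 7052 higher and 6262 to 6331 lower. Correlations of deviations between same-numbered libraries were 0.00475, 0.0337 and 0.0105, and those between unlike-numbered libraries ran from -0.053 to 0.0412. Values this near 0 cannot show whether the numbers pair the samples, since deviations may be technical. With the replicate block in a fit of the 6 libraries, 6615 were higher and 6336 lower of 14878 tested, with no gene turned, against 6669 and 6378 without the block in the same libraries. The gap in median log2 fold change between the longest and the shortest genes was 2.03 and became 1.20 with no filter and 2.36 with a filter of 1 CPM, and ran from 1.78 to 2.14 when 1 AML or KO library was left out and was 1.86 without WT replicate 1. The cause was not tested.

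Of the 232 named genes, Nfkb1 (-0.14 and, with the replicate block added, -0.19), Trem3 (0.19 and 0.19) and mt-Nd6 (0.33 and 0.34) turned with the length correction, and no named gene turned under another alternative. List medians that turned with the length correction, and with it and the replicate block together, were monocyte and macrophage (-0.13 and -0.15), stem and early progenitor (-0.071 and -0.12), interferon (0.29 and 0.23), DNA repair (-0.074 and -0.12), mitochondrially encoded (0.27 and 0.28) and cytosolic ribosomal (0.26 and 0.23), and glycolysis only with both (-0.036). With library totals, interferon (0.11), S phase (0.13), p53 (0.17) and cytosolic ribosomal (0.28) turned. With upper-quartile factors, T and NK (-0.080) and Bcl2 (-0.040) turned, and Bcl2 also in the 6 libraries with (-0.011) and without (-0.014) the replicate block. The T and NK median ran from -0.030 to 0.29 when 1 library was left out.

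Within 250 bases of the start, a gain was found at 5.06% of higher, 6.38% of lower, 17.0% of at least 4-fold lower and 8.65% of at least 4-fold higher genes, and a loss at 4.51%, 1.87%, 1.01% and 6.03%. With a difference of at least 0.3 within 1 kb, the gains were 3.77%, 5.24%, 14.5% and 6.28% and the losses 1.47%, 0.998%, 1.01% and 1.77%. Narrower windows and stricter differences count fewer regions by construction. Protein-coding genes and the 4-fold classes were chosen after seeing the data, as were the alternatives without WT replicate 1.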
